A study of Mus musculus with 10 samples.

Results

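The difference between 2 responses to one drug was examined gene by gene: the change with AP20187 in transgenic mouse muscle minus the change in C2C12 cells. A gene was taken when it could be read in both systems, that is, when 1 or more transgenic muscle groups and 1 or more C2C12 groups had it well above background in both samples. This held for 10656 of the 19748 genes named on the array, and for 20063 of its 55681 probes. Each gene is given by its brightest probe, and 10474 of them had the values needed for the difference. The other 182 lacked it because every array of a C2C12 group had a flagged spot. Of the 10656 genes, 9490 were well above background on all 8 arrays of the comparison.

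RNA from 5 groups of 2 samples each was hybridised to single-colour Agilent arrays. The tested mice were male C57BL/6J animals carrying hSA::Fv2E-PERK, a transgene that places the drug-controlled kinase under the human skeletal actin promoter, so the kinase is made in skeletal muscle fibres. They had been injected with AP20187 at 1 ng/g, or with vehicle, and their muscle was taken 12 h later. The tested cells were C2C12, an established mouse myoblast line, carrying Fv2E-PERK. They were differentiated for 3 days in 2% horse serum and given AP20187 at 100 nM, or ethanol as vehicle, for 12 h. Untreated wild type C57BL/6J muscle made up the fifth group. All 4 groups of the comparison carried the kinase fusion, and wild type mice given AP20187 or C2C12 cells without the fusion were not analysed here. Dose, vehicle, route and the way the fusion was delivered differed between muscle and C2C12, and these cannot be told apart from the difference between tissue and cell line.

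PERK is a kinase of the endoplasmic reticulum membrane that phosphorylates the translation factor eIF2alpha when unfolded proteins build up. This slows translation in general and favours the transcription factor ATF4, which with its partners switches on stress genes; the programme is called the integrated stress response. In Fv2E-PERK the sensing part of PERK is replaced by a domain that AP20187 joins into pairs, so the drug turns the kinase on without unfolded protein.

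Between 41.0% and 53.1% of probes stood well above background per array. Flagged spots made up 2.37% and 2.00% of probes on the AP20187 C2C12 arrays, mostly bright ones, and 0.160% to 0.376% on the other arrays. Both transgenic muscle groups were scanned in one session and both C2C12 groups in another, so each drug change lay within a session. A level set between muscle and C2C12 cannot be told apart from the session. No slide row held both C2C12 treatments, so row and treatment cannot be told apart in the cells. In muscle both vehicle arrays lay in array column 1 and the AP20187 arrays in columns 3 and 4. Column and treatment therefore cannot be told apart there. The headers listed 2 slide positions in 2 scan sessions, so slide was not used in the fit. The labels do not say whether the 2 samples of a group came from separate animals or cultures, so p-values measure the spread between these samples, which may be technical.

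Markers were read before the results. The summed level of 7 muscle fibre markers, as a log2 value after each array's 75th percentile was subtracted, was 12.4 to 12.7 in AP20187 muscle and 12.8 to 12.9 in vehicle muscle, against 8.52 to 8.68 in AP20187 C2C12 and 8.80 to 8.95 in vehicle C2C12. All such levels below are on this scale, on which 0 is the 75th percentile. Summed macrophage markers were at 4.27 on both AP20187 muscle arrays and at 5.01 to 5.15 in vehicle muscle. Fibroblast markers were also lower, at 4.50 in AP20187 muscle against 4.84 to 4.86 in vehicle muscle. So were Schwann markers, at 1.85 to 2.10 against 2.27 to 2.43, and erythroid markers, at 7.36 to 7.52 against 7.65 to 7.74. Myoblast and myotube markers were higher with AP20187, at 6.09 to 6.36 against 5.23 to 5.58. Summed endothelial markers were at 4.12 to 5.38 in AP20187 muscle and at 5.54 to 5.57 in vehicle muscle. The low value was that of Kdr on 1 array, 2.34 in AP20187 muscle replicate 2 against 4.52 to 5.08 on the other transgenic muscle arrays, and the other 4 endothelial markers overlapped between the treatments. The C2C12 arrays read macrophage markers at 1.33 to 1.41 with AP20187 and 1.18 to 1.47 with vehicle. In bulk muscle, fewer cells of a type and less RNA per cell cannot be told apart. The part of these cell types in the results was not tested.

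AP20187 changed many more genes in muscle than in C2C12, and both changes were nearly uncorrelated across genes. In muscle 3081 of 10656 genes (28.9%) passed limma's test at a Benjamini-Hochberg adjusted p under 0.05, of which 1674 (15.7%) rose and 1407 (13.2%) fell. The falls depended on scaling: quantile normalization gave 1617 rises and 659 falls, and the log2 values the authors deposited gave 1589 and 609. In C2C12 94 of 10474 (0.897%) passed, with 44 (0.420%) higher and 50 (0.477%) lower. The standard errors had a median of 0.146 log2 in muscle and 0.148 in C2C12. They were alike because 1 spread per gene was fitted over all groups, so they do not compare the spread of muscle with that of C2C12. The fitted changes differed: their SD across genes was 0.51 in muscle and 0.32 in C2C12. Rises of at least 1 log2 unit numbered 397 in muscle and 105 in C2C12, and falls of that size 124 and 48. At an unadjusted p under 0.05 there were 4582 genes in muscle and 1539 in C2C12. The C2C12 count was the less stable: it was 38 without vehicle C2C12 replicate 2, 244 without vehicle C2C12 replicate 1 and 946 with the normexp background correction. Without vehicle muscle replicate 2 the muscle count was 1489, with 1042 rises and 447 falls. Pearson's r between both changes was 0.02 over the 10474 genes and 0.08 over those above background on all 8 arrays, given as a description across genes, which are not independent.

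The difference itself, muscle change minus C2C12 change, passed the test for 1469 of 10474 genes (14.0%), beside 1697 of all 14090 genes that could be tested (12.0%). It was positive for 1089 (10.4%) and negative for 380 (3.63%). In the authors' own log2 table the split was 1004 positive and 157 negative. A positive difference means a larger rise, or a smaller fall, in muscle. Among the 1469 genes, 1267 had a called change in muscle alone, 53 in C2C12 alone, 7 in both in the same direction, 6 in both in opposite directions and 136 in neither. A further 1749 genes with a called change in muscle had no called difference. The median 95% interval of a difference, not adjusted for the number of tests, reached 0.46 log2 to either side. A call at an adjusted p under 0.05 needed more than that. Differences near or below 0.46 were therefore mostly not detectable with 2 arrays a group. Without vehicle muscle replicate 2, 759 differences passed.

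**Figure D1:**
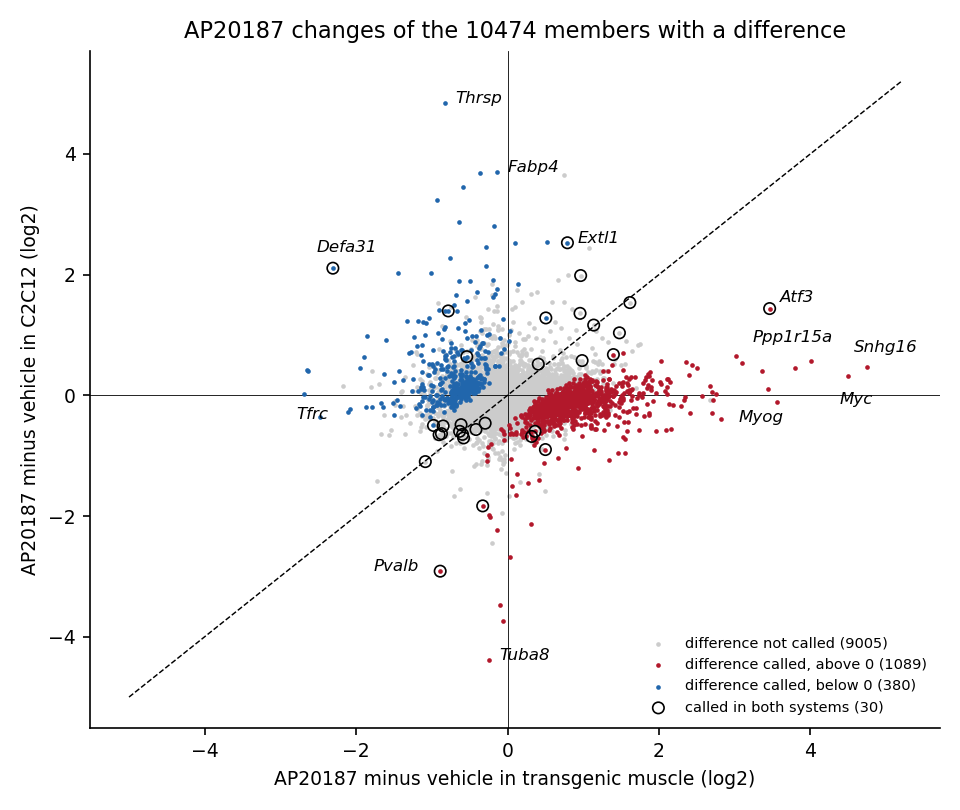
Log2 change with AP20187 in transgenic muscle (horizontal axis) and in C2C12 (vertical axis) for the 10474 genes with both, each point 1 gene, with the dashed line where the changes are equal. Red points are called differences above 0 (1089), blue points those below 0 (380), and rings mark the 30 genes called in both systems. Most coloured points spread along the muscle axis.

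Stress response genes were among those that rose in both systems and also among the largest differences. Of 24 measured genes (27 listed) on a list of regulators and targets of the integrated stress response, 19 rose in muscle and none fell, while 4 rose in C2C12 and none fell. The C2C12 count was 1 without AP20187 C2C12 replicate 1 or without vehicle C2C12 replicate 2, 2 without either vehicle muscle array, 7 with quantile normalization and 11 with the normexp background correction. The fitted change was above 0 for 23 of the 24 in muscle and 22 of 24 in C2C12. Over all 10474 genes it was above 0 for 4479 in muscle and 3912 in C2C12. The list's median change was 1.08 log2 in muscle and 0.43 in C2C12, beside medians of -0.08 and -0.07 over all genes. The difference was called for 9 of the 24, all positive. Over all genes 15.7% rose in muscle, 0.420% rose in C2C12 and 10.4% had a positive called difference. The list was drawn up with earlier results of these arrays known, so its direction is not independent evidence.

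Ppp1r15a encodes GADD34, the subunit that brings a phosphatase to eIF2alpha and reverses its phosphorylation. It stood at 6.84 and 7.11 on the AP20187 muscle arrays, against 3.04 and 2.88 on the vehicle muscle arrays. In C2C12 it read 4.41 and 4.04 with AP20187, against 3.49 and 3.81 with vehicle. The groups did not overlap in either system, but the muscle gap was far wider. The muscle change was 4.01 log2 (limma adjusted p = 7.26e-07), the C2C12 change of 0.58 did not pass (adjusted p = 0.114), and the difference was 3.44 (SE 0.21, adjusted p = 3.18e-05).

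Ddit3 encodes CHOP, a transcription factor linked to death under long stress. Its levels were 5.23 and 5.55 in AP20187 muscle, against 2.39 and 2.21 in vehicle muscle. The C2C12 arrays gave 2.61 and 2.54 with AP20187, against 1.88 and 2.19 with vehicle. The drug raised it 8.54-fold in muscle, and the C2C12 change of 0.54 log2 did not pass (adjusted p = 0.107). The difference was 2.56 (SE 0.19, limma adjusted p = 9.51e-05). Ddit4, an inhibitor of mTORC1 signalling, was at 6.35 and 7.01 in AP20187 muscle, against 3.91 and 4.06 in vehicle muscle. All 4 C2C12 arrays lay between 4.66 and 4.73. Those with AP20187 were higher by only 0.05 log2 (limma adjusted p = 0.914), and the difference was 2.64 log2 (SE 0.26). Sesn2, a stress-induced inhibitor of mTORC1, had a smaller called difference of 1.26 (SE 0.22, limma adjusted p = 0.00632), with 4.75 and 4.85 in AP20187 muscle against 3.42 and 3.05 in vehicle muscle.

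Atf3, a transcription factor induced downstream of ATF4, rose in both systems and still differed. It stood at 5.77 and 5.60 in AP20187 muscle, against 2.22 and 2.22 in vehicle muscle. In C2C12 it stood at 1.03 and 1.20 with AP20187, against -0.28 and -0.36 with vehicle. The rise was 3.46 log2 in muscle and 1.44 log2 in C2C12, and the difference was 2.02 log2 (SE 0.20, limma adjusted p = 0.000414). In each system the lowest AP20187 array lay above the highest vehicle array.

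Other stress genes had smaller differences, most of them not called. Trib3, a pseudokinase that feeds back on ATF4, was at 8.93 and 9.21 in AP20187 muscle, against 7.53 and 7.66 in vehicle muscle. The 1 unflagged AP20187 C2C12 array read 5.31, against 4.23 and 4.31 with vehicle. Its rises of 1.48 log2 in muscle and 1.04 in C2C12 differed by 0.44, which was not called. With 1 AP20187 C2C12 array, the spread came from the other groups. Its place among the genes that rose in C2C12 and in both systems thus rests on 1 array. Gadd45a, a growth arrest and DNA damage gene, read 5.14 and 5.77 in AP20187 muscle, against 4.38 and 4.26 in vehicle muscle. In C2C12 it read 3.97 and 3.88 with AP20187, against 2.85 and 2.67 with vehicle. Its rises of 1.14 and 1.16 log2 differed by -0.03, and the SE of 0.26 left room for a gap of either sign.

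Cth makes cysteine from cystathionine. It was at 3.19 and 3.27 in AP20187 muscle, against 2.34 and 2.20 in vehicle muscle, and at 1.59 and 1.18 in AP20187 C2C12, against 0.13 and -0.08 in vehicle C2C12. Both rises passed, 0.96 log2 in muscle and 1.36 in C2C12, with a difference of -0.40 (SE 0.26, limma adjusted p = 0.338). Tars, the threonine tRNA synthetase, rose by 0.99 log2 in muscle and 0.58 in C2C12, a difference of 0.41 that did not pass (adjusted p = 0.131). Gdf15, a secreted stress hormone, was at 5.12 and 5.03 in AP20187 muscle, against 3.72 and 3.63 in vehicle muscle. In C2C12 it was at 1.57 and 1.73 with AP20187, against 1.13 and 0.82 with vehicle. Its difference of 0.72 (SE 0.18, limma adjusted p = 0.0297) was lost when single arrays of the comparison were left out, where it lay between 0.57 and 0.88.

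Fgf21, a hormone secreted by stressed muscle and liver, went with neither pattern firmly. It was at 6.60 and 6.89 in AP20187 muscle, against 5.89 and 6.01 in vehicle muscle, and at 4.22 and 3.94 in AP20187 C2C12, against 2.41 and 1.77 in vehicle C2C12. The difference of -1.19 had an SE of 0.74 and did not pass (limma adjusted p = 0.313). Atf4 itself rose by 0.39 log2 in muscle and its C2C12 change was 0.30, a difference of 0.08 (SE 0.13, adjusted p = 0.703). Atf4 is controlled chiefly at translation, which these RNA arrays do not read. Eif2ak3, the endogenous PERK gene, differed by 0.33 (SE 0.25, adjusted p = 0.409). Asns and Psat1, enzymes of asparagine and serine synthesis and known ATF4 targets, had differences of -0.08 (SE 0.22) and -0.41 (adjusted p = 0.213). Chac1, a glutathione-degrading enzyme, rose by 1.89 log2 in muscle, and both AP20187 C2C12 spots were flagged, so it had no difference.

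These genes did not start from the same level. Vehicle C2C12 minus vehicle transgenic muscle had a median of -1.07 log2 over the 24 genes, and vehicle transgenic muscle itself stood above untreated wild type muscle for several of them. Trib3 read 7.53 and 7.66 in vehicle transgenic muscle, against 0.10 and -0.41 in wild type muscle. Gdf15 read 3.72 and 3.63 against -4.36 and -4.39 in wild type, where it was not well above background. Ddit3 read 2.39 and 2.21 against 0.38 and 0.36. Wild type muscle was scanned in another session, which cannot be told apart from the genotype. In only 2 of the 24 genes, Jdp2 and Ppp1r15b, named here after their values were seen, did vehicle C2C12 reach the AP20187 muscle level.

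**Figure D2:**
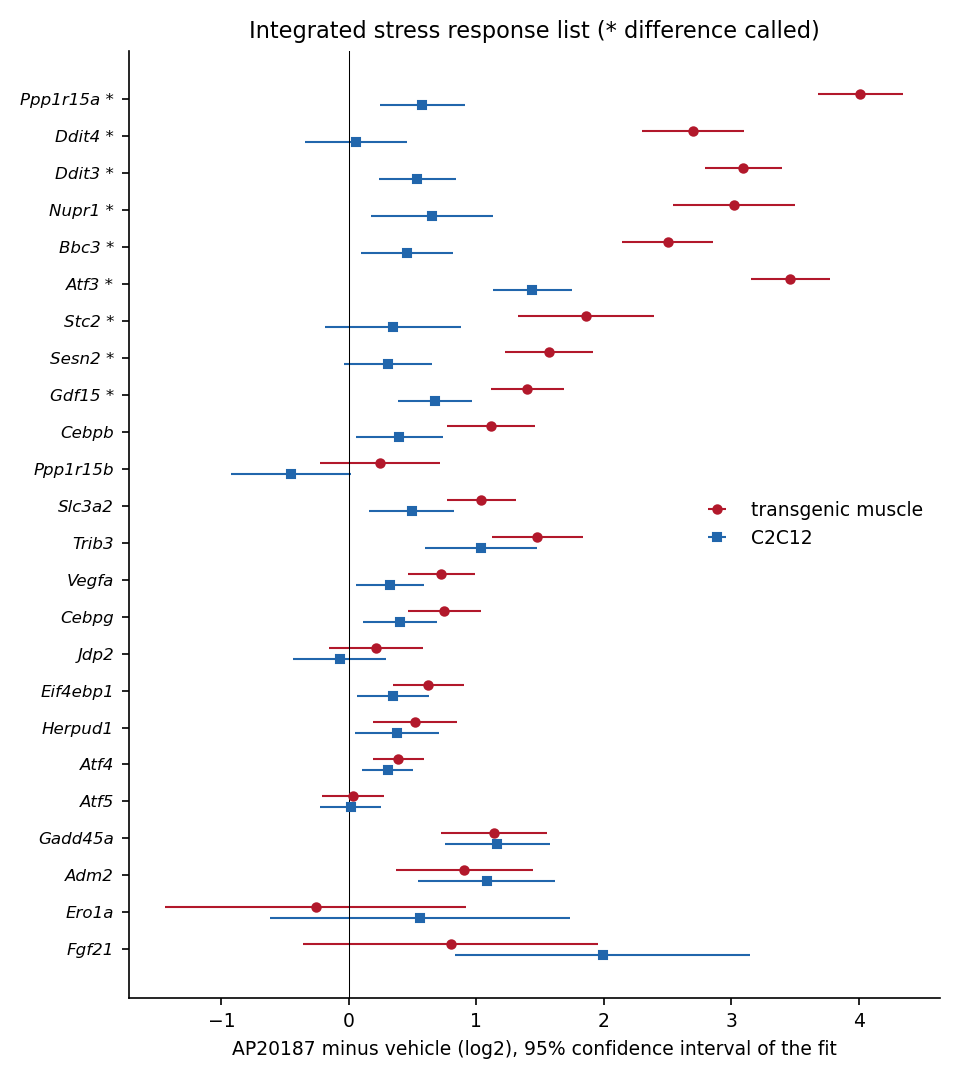
Log2 change with AP20187 in muscle (red circles) and in C2C12 (blue squares) for the 24 genes of the integrated stress response list, with lines for the 95% confidence interval of each fitted change. Stars mark the 9 called differences; Ppp1r15a, Ddit3, Ddit4 and Atf3 sit far apart between the systems, while Gadd45a lies close.

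ATF4 and its C/EBP partners are known to bind the element TGATGNAA, and the promoters shown are those of the genes that rose in both systems and hold it. The windows of Gadd45a and Gdf15, which also rose in both, hold no match and are not shown. The windows run from 250 bases before to 50 after the gene's start, as given by RefSeq on GRCm38.p6, and capitals mark the match. All 3 matches lie on the opposite strand, so the printed letters are the element's reverse complement. In Atf3 (chr1:191183284-191183583, minus strand) it starts 110 bases before the gene's start, in Tars (chr15:11399609-11399908, minus strand) 15 bases before, and in Trib3 (chr2:152344011-152344310, minus strand) 14 bases after.
Atf3: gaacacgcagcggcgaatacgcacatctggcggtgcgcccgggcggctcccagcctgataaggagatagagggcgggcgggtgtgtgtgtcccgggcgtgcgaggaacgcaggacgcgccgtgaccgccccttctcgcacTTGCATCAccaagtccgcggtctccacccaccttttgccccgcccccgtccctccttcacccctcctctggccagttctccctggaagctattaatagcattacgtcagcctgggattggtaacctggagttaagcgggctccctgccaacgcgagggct
Tars: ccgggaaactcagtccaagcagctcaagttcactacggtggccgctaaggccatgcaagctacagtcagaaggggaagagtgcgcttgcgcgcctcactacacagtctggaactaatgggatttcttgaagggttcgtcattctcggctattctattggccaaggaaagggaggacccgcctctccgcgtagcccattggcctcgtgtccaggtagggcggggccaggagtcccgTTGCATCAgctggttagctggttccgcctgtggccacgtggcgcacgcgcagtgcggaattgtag
Trib3: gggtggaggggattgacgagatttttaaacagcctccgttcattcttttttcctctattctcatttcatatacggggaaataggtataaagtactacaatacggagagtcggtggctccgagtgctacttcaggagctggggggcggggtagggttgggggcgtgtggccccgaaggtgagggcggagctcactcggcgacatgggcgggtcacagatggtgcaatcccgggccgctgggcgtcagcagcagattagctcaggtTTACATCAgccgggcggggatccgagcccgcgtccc

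The element was found in 6 of 22 stress response genes with a promoter (6 of 29 windows, 20.7%), in 3 of 9 genes that rose in both systems and in 0 of 9 windows of genes that fell in both. It was in 1304 of all 32851 promoters (3.97%) and in 236 of the 10755 windows of the genes examined here (2.19%). Both strands were searched, and no matches overlapped. Among stress genes with a called difference 2 of 9 held it, against 4 of 13 without one. A match describes the letters only. Ppp1r15a (chr7:45526219-45526518, minus strand) held no such match but the cyclic AMP response element TGACGTCA, which starts 12 bases before the gene's start. TGACGTCA is in 588 (1.79%) of all promoters and in 330 (3.07%) of the windows of the genes examined here. The Ppp1r15a window is shown as that of the stress gene with the largest called difference.
Ppp1r15a: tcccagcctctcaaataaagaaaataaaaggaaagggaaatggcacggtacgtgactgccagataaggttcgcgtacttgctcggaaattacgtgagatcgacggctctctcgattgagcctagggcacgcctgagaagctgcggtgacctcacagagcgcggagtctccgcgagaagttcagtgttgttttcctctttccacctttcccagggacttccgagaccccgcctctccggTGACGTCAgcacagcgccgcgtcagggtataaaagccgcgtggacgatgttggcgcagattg

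The largest positive differences included growth and differentiation genes that rose with AP20187 in muscle and that vehicle C2C12 already held above the vehicle muscle level. Myc encodes a transcription factor that drives ribosome production and growth. It stood at 3.63 and 3.30 in AP20187 muscle, against -0.72 and -1.34 in vehicle muscle and -1.20 and -1.26 in wild type muscle. In C2C12 it was at 1.14 and 1.01 with AP20187, against 0.72 and 0.81 with vehicle. AP20187 muscle lay above every other array and vehicle muscle below every C2C12 array. The muscle rise was 22.5-fold (limma adjusted p = 7.84e-07), the C2C12 change of 0.31 log2 did not pass (adjusted p = 0.476), and the difference was 4.18 (SE 0.28, adjusted p = 3.82e-05).

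Myog encodes myogenin, the factor that commits myoblasts to fuse. It was at 5.10 and 5.70 in AP20187 muscle, against 2.05 and 1.86 in vehicle muscle. All 4 C2C12 arrays read higher, at 6.81 and 6.79 with AP20187, against 6.71 and 6.67 with vehicle. The rise was 10.9-fold in muscle, and the difference was 3.33 log2 (SE 0.30, limma adjusted p = 0.00029). Of 15 measured genes (24 listed) on the list of myogenic factors and fusion genes, 5 had a positive called difference and none a negative one. Over all genes these shares were 10.4% and 3.63%. Musk, the kinase that organises the neuromuscular junction, differed by 1.14 (SE 0.21), Mef2d, a muscle transcription factor, by 0.98, and Myod1, which starts the myogenic programme, by 0.83 (SE 0.17). Without vehicle muscle replicate 2 the positive calls numbered 3. No gene of this list was called in C2C12, but the fitted change there was above 0 for 1 of 15 genes, the median was -0.26, and the normexp background correction called 3 genes lower.

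Snhg16 and Snhg1 are noncoding genes whose introns carry small nucleolar RNAs. Snhg16 read 4.02 and 5.03 in AP20187 muscle, against -0.43 and 0.00 in vehicle muscle. It read 3.20 and 3.15 in AP20187 C2C12, against 2.65 and 2.76 in vehicle C2C12. Vehicle muscle lay below all C2C12 arrays and AP20187 muscle above them. The rise was 26.8-fold in muscle, and the difference was 4.27 log2 (SE 0.42, limma adjusted p = 0.000414). Snhg1 read 1.60 and 2.65 in AP20187 muscle, against -1.97 and -1.39 in vehicle muscle. It read 1.65 and 1.40 in AP20187 C2C12, against 1.09 and 1.06 in vehicle C2C12. AP20187 muscle overlapped AP20187 C2C12 there, and the difference was 3.35 (SE 0.44, adjusted p = 0.00183).

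Genes that build ribosomes rose in muscle as a group. Of 31 such genes, all measured, 23 rose in muscle and none fell, none was called in C2C12, and 18 had a positive called difference (none negative). Over all genes 15.7% rose in muscle and 10.4% had a positive called difference. The median change was 0.95 log2 in muscle and 0.07 in C2C12. Nop2, a methyltransferase of ribosomal RNA, was at 5.07 and 5.04 in AP20187 muscle, against 3.54 and 3.53 in vehicle muscle. Its C2C12 arrays read 4.87 and 5.02 with AP20187, against 4.97 and 5.0 with vehicle. The muscle rise was 2.87-fold, and the difference was 1.56 log2 (SE 0.12, limma adjusted p = 0.000134). Gnl3, a nucleolar GTPase, differed by 1.72 (SE 0.24), Grwd1, a ribosome assembly factor, by 1.39 (SE 0.18), and Polr1b, a subunit of RNA polymerase I, by 1.35. Over the list, vehicle C2C12 stood 1.05 log2 above vehicle muscle and 0.02 above AP20187 muscle, as medians. In 16 of the 31 genes vehicle C2C12 was at or above AP20187 muscle. This held for 5283 of all 10474 genes (50.4%), so that count was near the background.

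Immediate early genes, which respond within minutes to many signals, split less evenly. Of 21 measured genes (27 listed) 11 rose and 1 fell in muscle, none was called in C2C12, and the difference was called positive for 9 and negative for 1. Over all genes 15.7% rose and 13.2% fell in muscle, and 10.4% had a positive and 3.63% a negative called difference. Egr1, a zinc finger factor, read 3.04 and 2.70 in AP20187 muscle, against -0.25 and 0.35 in vehicle muscle. In C2C12 it read 2.45 and 2.58 with AP20187, against 3.00 and 2.82 with vehicle. AP20187 muscle thus overlapped the vehicle C2C12 range, and the difference was 3.21 log2 (SE 0.28). Fos, a subunit of AP-1, stood at 2.47 and 2.07 in AP20187 muscle, against -1.53 and -1.06 in vehicle muscle. It stood at -2.06 and -1.83 in AP20187 C2C12, against -1.66 and -2.02 in vehicle C2C12. The C2C12 groups overlapped, and the difference was 3.67 (SE 0.34, limma adjusted p = 0.000301). Only 1 AP20187 C2C12 array was well above background, so Fos entered through the vehicle C2C12 arrays. That entry favoured a fall in C2C12, where the fitted change was -0.11 log2. Btg2, an antiproliferative gene, differed by 2.46 (SE 0.30).

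**Figure D3:**
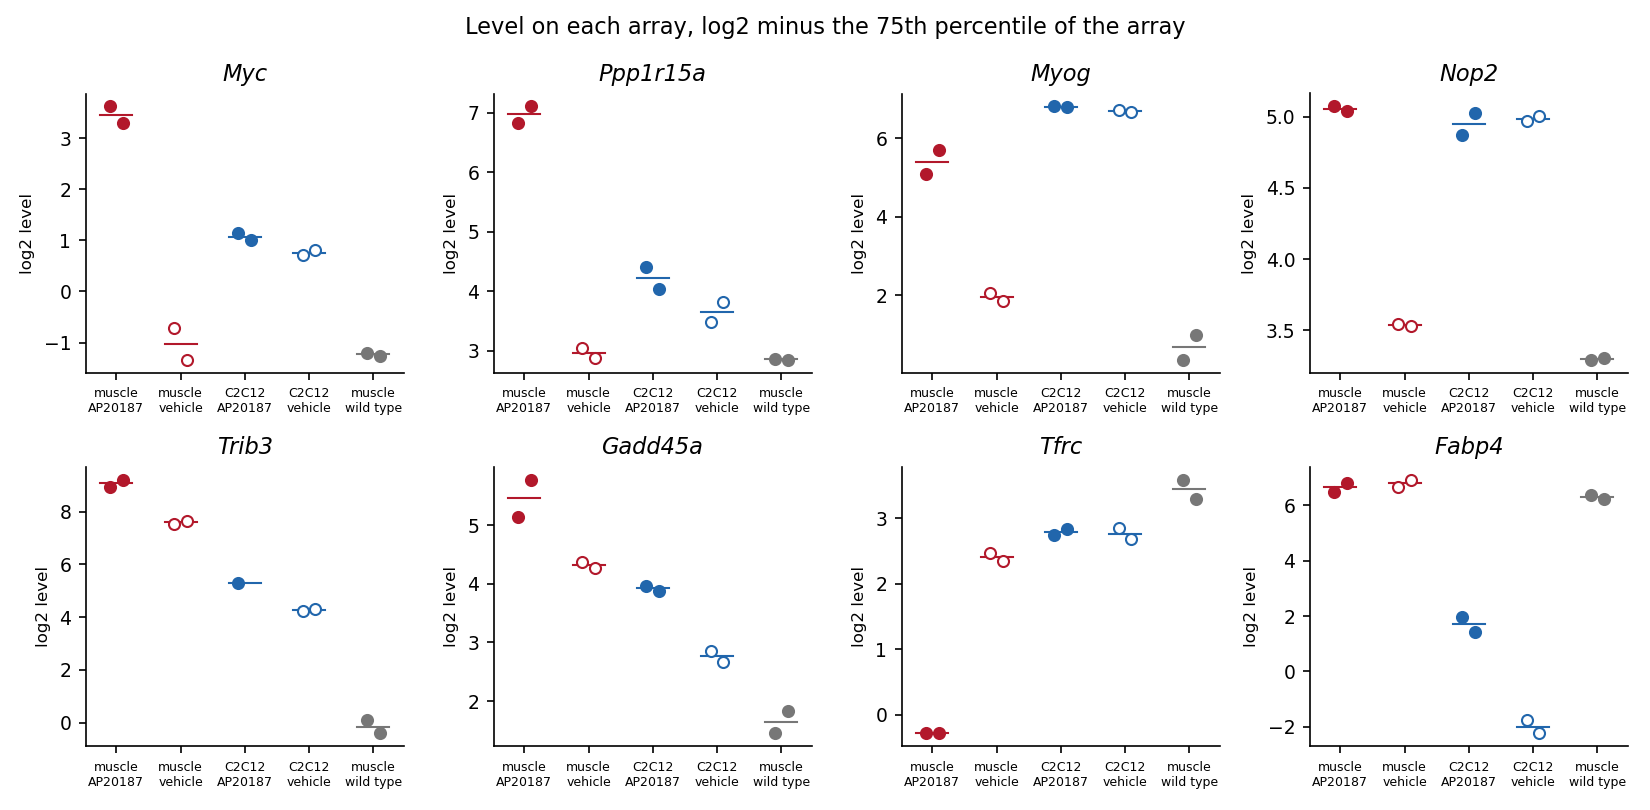
Log2 level relative to the array's 75th percentile on each array for genes named in the text, in the order AP20187 muscle, vehicle muscle, AP20187 C2C12, vehicle C2C12 and wild type muscle. Each point is 1 array and each line the group mean. In AP20187 muscle Nop2 reads 5.07 and 5.04, beside the C2C12 arrays, Myog lies below them and Myc above them; Fabp4 is higher in AP20187 C2C12 than in vehicle C2C12.

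Antioxidant targets of NRF2 were another group with differences. Srxn1, which repairs oxidised peroxiredoxin, was at 7.59 and 7.82 in AP20187 muscle, against 4.75 and 5.22 in vehicle muscle. In C2C12 it was at 2.95 and 3.00 with AP20187, against 2.95 and 3.15 with vehicle, and the difference was 2.79 log2 (SE 0.21, limma adjusted p = 9.25e-05). Osgin1, a growth inhibitor induced by oxidants, stood at 4.75 and 4.88 in AP20187 muscle, against 2.80 and 2.51 in vehicle muscle. It stood at 1.43 and 1.45 in AP20187 C2C12, against 1.84 and 2.14 in vehicle C2C12. Its difference was 2.71 (SE 0.18, adjusted p = 4.1e-05). Nfe2l2, which encodes NRF2, differed by 1.32 and Txnrd1, a thioredoxin reductase, by 1.01. The list as a whole was mixed: of 18 genes 7 rose and 5 fell in muscle, none was called in C2C12, and the difference was positive for 6 and negative for 1. Over all genes 15.7% rose and 13.2% fell in muscle, and 10.4% had a positive and 3.63% a negative called difference.

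Further lists are given beside the 10.4% of all genes with a positive called difference. In the NF-kappaB pathway the difference was positive for 5 of 11 genes (3 without AP20187 muscle replicate 1, vehicle muscle replicate 1, AP20187 C2C12 replicate 1 or vehicle C2C12 replicate 2), among them Relb (1.62, SE 0.19) and Rela (0.93), both subunits of the factor. It was negative for 1, the TNF-induced gene Tnfaip2 (-1.51, SE 0.17). Of 14 atrophy genes 4 were positive and none negative. They included Fbxo32 and Trim63, the muscle ubiquitin ligases, at 1.98 and 1.11, and Cebpd, a stress-induced transcription factor, at 1.73. The Fbxo32 call was lost without AP20187 muscle replicate 2, vehicle muscle replicate 2 or vehicle C2C12 replicate 2. Of 13 clock genes 4 were positive, with Nfil3 at 1.79, Cry2 at 0.99, Dbp at 0.90 and Csnk1d at 0.74. The Dbp call was lost under 7 of the 19 alternatives and the Cry2 call under 1. Of 17 amino acid transporters, many of them ATF4 targets, 4 were positive: Slc43a1 (1.48), Slc38a1 (1.29), Slc38a2 (0.97) and Slc6a9 (0.89). In C2C12, where 0.897% of all genes were called, none of the genes on these lists was, which is near that background.

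Of 25 genes of the endoplasmic reticulum for folding, stress sensing and degradation, 9 rose in muscle and 5 had a positive called difference. Over all genes 15.7% rose in muscle and 10.4% had a positive called difference. The 4 named are sensors, a factor and a ligase rather than chaperones. Ern1, which encodes the stress sensor IRE1alpha, differed by 1.58, Atf6, another sensor, by 1.18, Xbp1, the factor that IRE1alpha splices, by 0.90, and Syvn1, a ubiquitin ligase of degradation, by 0.84. The list's median change was 0.02 log2 in muscle and -0.02 in C2C12. The endoplasmic reticulum stress response element, which ATF6 binds with NF-Y, is CCAAT and CCACG with 9 bases between them. It was in 8 of 22 promoter windows of the whole list (36.4%) and in 39 (0.119%) of all promoters. Among the genes named, the window of Syvn1 held it and those of Ern1 and Xbp1 did not. The other matches were in Calr, Canx, Creld2, Dnajc3, Hsp90b1, Hspa5 and Pdia6. Of 18 tRNA synthetases 4 rose in muscle and 1, Tars, in C2C12, with no called difference and like medians of 0.17 and 0.20 log2.

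**Figure D4:**
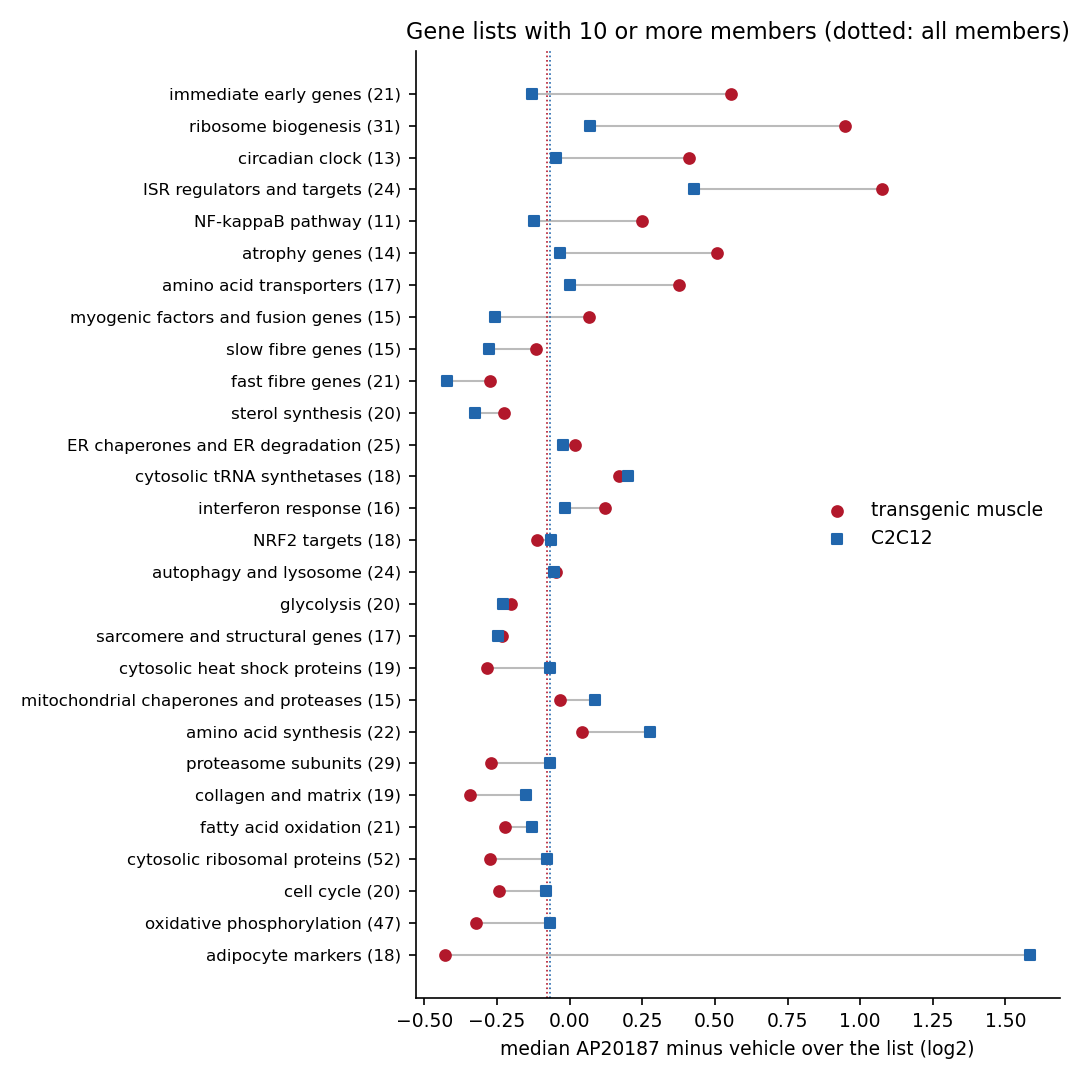
Median log2 change with AP20187 in muscle (red circles) and in C2C12 (blue squares) for each gene list of 10 or more genes, with the number of genes in brackets and dotted lines at the medians of all 10474 genes. Ribosome biogenesis lies at 0.95 in muscle and 0.07 in C2C12. The adipocyte markers lie at -0.43 and 1.59, but at 0.12 and 0.05 when restricted to genes well above background on all 8 arrays.

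Negative differences included falls in muscle with no called change in C2C12 and rises in C2C12 with no called change in muscle, besides genes called in both systems. Tfrc, the transferrin receptor that brings iron into cells, was of the first kind. It read -0.29 and -0.28 in AP20187 muscle, against 2.47 and 2.34 in vehicle muscle and 3.59 and 3.29 in wild type. In C2C12 it read 2.74 and 2.83 with AP20187, against 2.85 and 2.68 with vehicle. The fall in muscle was 6.43-fold (limma adjusted p = 8.33e-07), the C2C12 groups overlapped (adjusted p = 0.958), and the difference was -2.70 (SE 0.17, adjusted p = 3.23e-05). Nmrk2, a muscle kinase of NAD synthesis, stood at 4.23 and 4.34 in AP20187 muscle, against 6.24 and 7.29 in vehicle muscle. Its C2C12 arrays lay at 2.57 and 2.44 with AP20187, against 2.77 and 2.95 with vehicle, and the difference was -2.13 (SE 0.37, adjusted p = 0.00597).

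Kif5c, a kinesin motor, had the largest negative difference among named genes well above background on all 8 arrays. It read -3.12 and -3.32 in AP20187 muscle, against 0.36 and -1.50 in vehicle muscle, and the vehicle arrays lay far apart. The difference was -3.06 (SE 0.65, limma adjusted p = 0.0144), and the call was lost without vehicle C2C12 replicate 2. Of 47 oxidative phosphorylation genes 16 fell in muscle and 4 had a negative called difference, between -0.61 and -0.72. Over all genes 13.2% fell in muscle and 3.63% had a negative called difference. Each of the 4 (Ndufa5, Ndufb3, Sdhc and Uqcrb) lost its call under at least 8 of the 19 alternatives. C1qa and Cd74, macrophage markers, had differences of -1.73 and -1.19, beside the lower summed macrophage level in AP20187 muscle given above. C1qa was at 0.69 and 0.86 in AP20187 muscle, against 1.65 and 1.86 in vehicle muscle. In C2C12 it was at -1.70 and -1.24 with AP20187, against -1.95 and -2.48 with vehicle, where only 1 array was well above background. It entered through the AP20187 C2C12 arrays, so part of its difference was a C2C12 rise that its entry favoured.

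Fat cell genes gave examples of the second kind. They were measured for 18 of the 22 listed, but 9 of the 18 were not well above background on both vehicle C2C12 arrays and entered through the AP20187 C2C12 arrays, where they were high. A rise in C2C12 was thus fixed by entry in these 9, so no count or median over the 18 is read as a result. Of the 9 genes well above background on all 8 arrays, 2 rose in muscle, 1 rose in C2C12 and 1 had a called difference, the triglyceride enzyme Dgat2 (-0.78), which rose in both. Their median change was 0.12 log2 in muscle and 0.05 in C2C12, where that of the 18 was -0.43 and 1.59. The genes described next are among those that were low in vehicle C2C12. Fabp4, the fatty acid binding protein of fat cells, was at 6.48 and 6.82 in AP20187 muscle, against 6.66 and 6.93 in vehicle muscle. In C2C12 it was at 1.98 and 1.43 with AP20187, against -1.76 and -2.24 with vehicle. The muscle groups overlapped and the C2C12 groups did not. The fitted C2C12 rise was 13.0-fold, but only 1 vehicle C2C12 array was well above background. The difference was -3.85 (SE 0.29), and it lay between -4.12 and -2.51 over the alternatives. The C2C12 rise in it was fixed by the gene's entry, so no test is read as a result.

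Thrsp, a regulator of fat synthesis, read 3.39 and 3.74 in AP20187 muscle, against 4.02 and 4.78 in vehicle muscle. It read 0.68 and -0.30 in AP20187 C2C12, against -4.83 and -4.47 in vehicle C2C12, where it was not well above background. The C2C12 rise was therefore at least 7.80-fold, and the fitted difference of -5.67 (SE 0.52) is not a bound. Adipoq, the fat hormone adiponectin, rose at least 7.88-fold in C2C12. A bound of this kind sets the bright group's mean against the background limit of the dim group's arrays, and it holds for the main processing only. Cfd, which encodes adipsin, and Retn, which encodes resistin, had differences of -4.05 (SE 0.42) and -4.16 (SE 0.56). Each was well above background on 1 vehicle C2C12 array. The C2C12 rise in all these differences was fixed by the genes' entry, so no test of them is read as a result. Summed over 6 adipocyte markers the level was 2.98 to 3.49 in AP20187 C2C12, against -0.38 to 0.05 in vehicle C2C12. All 6 were well above background on both AP20187 C2C12 arrays and 0 of 6 on both vehicle C2C12 arrays. In muscle the sum was 7.60 to 8.33 with AP20187 and 8.03 to 8.50 with vehicle. Whether a few fat-like cells or many cells with low levels gave the C2C12 signal was not tested.

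Fast fibre genes differed the other way, and those named fell further in C2C12. Of 21 genes 7 fell in muscle and 7 fell in C2C12, and the difference was positive for 6 and negative for 1. Over all genes 13.2% fell in muscle and 0.477% in C2C12, and 10.4% had a positive and 3.63% a negative called difference. Of the 21, 6 were not well above background on both AP20187 C2C12 arrays and entered through the vehicle ones; among the other 15 genes 6 fell in muscle and 5 in C2C12, with 4 positive differences and 1 negative. The muscle falls numbered 2 with quantile normalization, 3 without vehicle muscle replicate 2 and 4 without vehicle muscle replicate 1, without either AP20187 muscle array or without AP20187 C2C12 replicate 2. The C2C12 falls numbered 4 without vehicle C2C12 replicate 2 and 11 with the normexp background correction. Pvalb, the calcium buffer of fast fibres, was at 10.30 and 10.22 in AP20187 muscle, against 11.08 and 11.22 in vehicle muscle. In C2C12 it was at -0.73 and -0.48 with AP20187, against 2.40 and 2.22 with vehicle. Both falls passed, 0.89 log2 in muscle and 2.91 in C2C12, and the difference was 2.02 (SE 0.17, limma adjusted p = 0.000191). Myh4, the fastest myosin heavy chain, read 10.67 and 10.54 in AP20187 muscle, against 10.89 and 10.97 in vehicle muscle. It read 0.80 and 0.96 in AP20187 C2C12, against 2.71 and 2.72 in vehicle C2C12, with a difference of 1.50 (SE 0.15, adjusted p = 0.000414).

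Tuba8, a tubulin of muscle and testis, was at 6.63 and 6.68 in AP20187 muscle, against 6.83 and 6.96 in vehicle muscle. It was at -4.28 and -4.38 in AP20187 C2C12, where it was not well above background, against 0.12 and 0.00 in vehicle C2C12. The fall in C2C12 was at least 6.49-fold. The fitted difference of 4.15 (SE 0.14) is not a bound, and with the C2C12 fall at its bound the difference was 2.46. Like the genes named next, Tuba8 entered through the vehicle C2C12 arrays, where it was high. A fall in C2C12 was thus fixed by entry, so no test of it is read as a result. Mybpc2, Ckmt2 and Myh2, which encode a fast myosin binding protein, the mitochondrial creatine kinase and a fast myosin, fell at least 6.85-fold, 4.15-fold and 2.72-fold in C2C12 by the same reckoning. These bounds hold for the main processing only. Over the alternatives the differences were as low as 1.28 for Tuba8, 1.37 for Mybpc2, 0.95 for Ckmt2 and 0.67 for Myh2. The Myh2 difference did not pass with the normexp background correction.

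The C2C12 calls were also set against the level of each gene in muscle and in the cells. Genes were divided by their level in wild type muscle minus the mean of the 4 C2C12 arrays. The wild type arrays enter none of the changes, while the C2C12 arrays enter both measures. Where muscle stood at least 2 log2 units higher (947 genes), 50 genes (5.28%) were called in C2C12, 21 higher and 29 lower. Where the levels were within 2 units (8305 genes) the C2C12 share was 0.421% (35 genes), and where C2C12 stood at least 2 units higher (1222 genes) it was 0.736%. These shares depended on the processing. With the normexp background correction they were 12.7%, 8.46% and 10.1%, far closer to each other. Without vehicle C2C12 replicate 1 they were 8.98%, 1.76% and 1.06%, and without vehicle C2C12 replicate 2 they were 2.85%, 0.0964% and 0.246%. Among genes well above background on all 8 arrays they were 3.32%, 0.340% and 0.388%. In muscle 29.9% of the first class and 28.7% of the second were called, and in the third 214 genes were called higher and 152 lower. The difference was positive for 54 and negative for 100 genes of the first class, for 898 and 254 of the second and for 137 and 26 of the third. In the first class this lean towards negative depended on scaling: quantile normalization gave 73 positive and 75 negative. Leaving out 1 array at a time gave 54 to 109 negative and 32 to 50 positive.

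**Figure D5:**
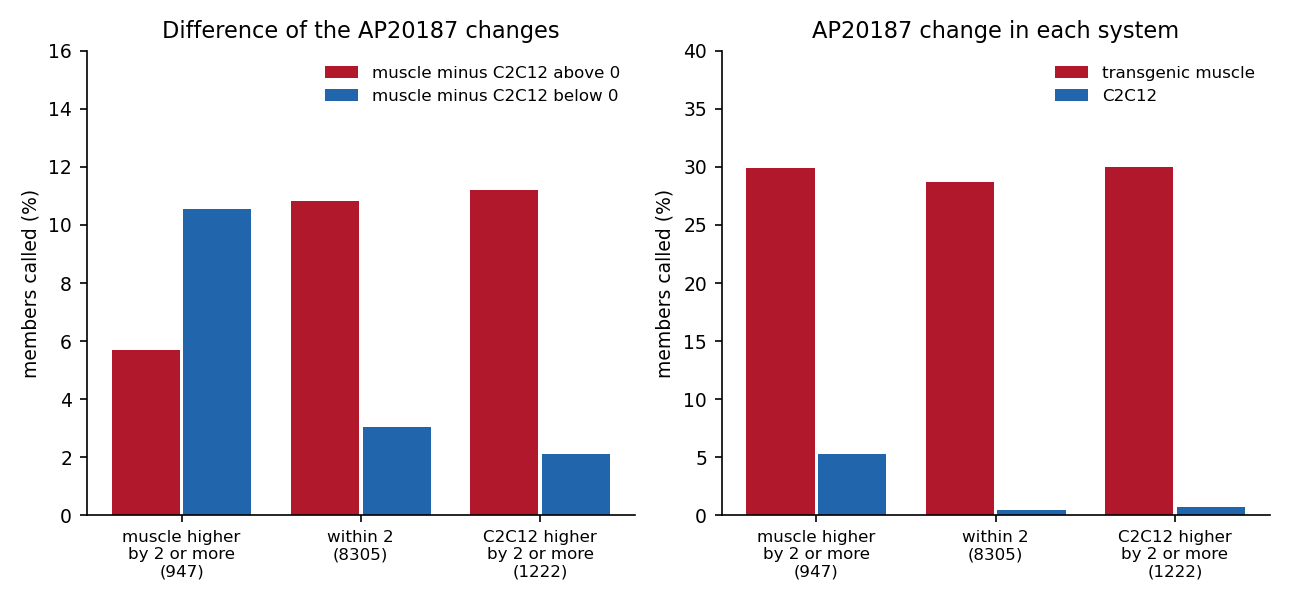
Share of genes called, in percent, in 3 classes by wild type muscle level minus C2C12 level, with the number of genes in brackets. The left panel splits called differences into above 0 and below 0, and the right panel gives called changes in muscle and in C2C12; the C2C12 bar is highest in the class that stands at least 2 log2 units higher in muscle, a contrast that was much smaller with the normexp background correction (12.7%, 8.46% and 10.1%).

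Only 30 genes were called in both systems, and 24 of them moved in the same direction, 11 up and 13 down. Those 24 made up 0.779% of the muscle calls and 25.5% of the C2C12 calls. In either direction 0.897% of all genes were called in C2C12 and 28.9% in muscle, and 30 of the 94 C2C12 calls were near that muscle share. By direction the overlap was larger than the background. Of 44 genes higher in C2C12, 11 rose in muscle, where 15.7% of all genes rose. Of 50 genes lower in C2C12, 13 fell in muscle, where 13.2% of all genes fell. The overlap was not tested, and it depended on the processing. With the normexp background correction 116 genes called in both moved in the same direction and 117 in opposite directions. For 17 of the 24 the difference was not called. Besides the stress genes above, Cdsn, which encodes the epidermal adhesion protein corneodesmosin, rose in both. It was at 4.20 and 4.06 in AP20187 muscle, against 2.48 and 2.54 in vehicle muscle, and at 2.19 and 2.40 in AP20187 C2C12, against 0.55 and 0.97 in vehicle C2C12. Its rises of 1.62 and 1.54 log2 differed by 0.08 (SE 0.24, limma adjusted p = 0.863). Extl1, a heparan sulphate glycosyltransferase, rose by 0.79 log2 in muscle and at least 2.74-fold in C2C12. It entered through the AP20187 C2C12 arrays, where it was high, so its rise in C2C12 was fixed by its entry. Its fitted difference was -1.74, which is not a bound, but 0.039 with the normexp background correction.

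Among the genes that fell in both, Pgam2, the muscle phosphoglycerate mutase, read 8.35 and 8.13 in AP20187 muscle, against 9.25 and 9.41 in vehicle muscle. In C2C12 it read 2.10 and 2.07 with AP20187, against 3.00 and 3.36 with vehicle. The falls of 1.09 and 1.1 log2 differed by 0.01 (SE 0.19, limma adjusted p = 0.973), although the levels lay far apart. Dhrs7c, Klhl31, Gprc5b, Dvl3 and Ldb3 had differences between -0.25 and 0.13, none of them called.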

How the data were processed

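Members and gene lists were chosen with earlier results of these data known. RNA (150 ng) was labelled with Cy3 and hybridised to single-colour Agilent arrays. Per the file headers, Agilent Feature Extraction 10.7.1.1 gave each spot a processed intensity from which background had been subtracted. The authors also deposited a table of log2 values, made from the same arrays. Its columns followed the scanner values (medians -0.58 to 0.80), but its centring is not stated.

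Flagged outlier spots were dropped, intensities were divided by each array's 75th percentile of gene spots and put on a log2 scale, and spots of a probe were averaged. The brightest probe stood for its gene. Genes well above background in both samples of any of the 5 groups were tested (14290). Gene names came from the probe files and the RefSeq table. limma 3.58.1 in R 4.3.3 (lmFit, eBayes with trend) fitted 10 arrays with a term per group, and 5 residual and 5.58 prior degrees of freedom. P-values were adjusted by Benjamini-Hochberg over all tested genes, with 0.05 as the limit for a call. The code was tested on simulated data. With 2 arrays a group, their number limits the precision.

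Genes were named by rule: the 10 largest differences each way among called genes well above background on all 8 arrays, and 5 each way among the others. To these were added 8 called in opposite directions (6 existed), 8 that rose and 8 that fell in both, the 4 smallest p-values in each of 36 lists, and 14 stress genes. Same-numbered samples correlated at 0.34 between AP20187 and vehicle muscle. They correlated at 0.29 between AP20187 and wild type muscle, at 0.19 between vehicle and wild type muscle, and at 0.02 between the C2C12 groups. Numbers were not used as pairs, and a replicate block was run as an alternative. The alternatives were other scalings, filters, probe rules and fits, and single arrays left out.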

Additional observations from a re-analysis of the deposited data

Results flagged for a closer look

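In 6 genes AP20187 gave called changes of opposite sign in muscle and in C2C12, and the difference itself passed limma's test in each. Zfp467, a zinc finger protein linked to fat and bone cell fate, was at 2.75 and 2.83 in AP20187 muscle, against 3.52 and 3.63 in vehicle muscle. It was at -0.03 and -0.19 in AP20187 C2C12, against -1.01 and -2.01 in vehicle C2C12, and the difference was -2.18 (adjusted p = 0.0043). Mylk2, the kinase of skeletal myosin light chains, read 6.43 and 6.41 in AP20187 muscle, against 5.90 and 5.93 in vehicle muscle. It read -1.62 and -1.63 in AP20187 C2C12, against -1.0 and -0.46 in vehicle C2C12, with a difference of 1.40 (adjusted p = 0.0039).

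Sdr39u1, a short-chain dehydrogenase, had a difference of -1.18 from a muscle fall of 0.54 log2 and a C2C12 rise of 0.64. Ccdc134 had a difference of 1.00, with changes of 0.32 in muscle and -0.68 in C2C12. Usp20, a deubiquitinase, had a difference of 0.96, with changes of 0.36 and -0.60, and took the other sign when the probes of the gene were averaged. Defa31, a defensin gene of the gut, had a difference of -4.41. It was not well above background in AP20187 muscle or in vehicle C2C12, so its fall in muscle was at least 1.97-fold and its rise in C2C12 at least 2.93-fold. Both directions were fixed by its entry through vehicle muscle and AP20187 C2C12, so its tests are not read as results. Defensin genes are a family of close copies, so the probe's reading is uncertain.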

How the results depend on the processing

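The counts below stand beside 1469 called differences, 3081 calls in muscle, 94 in C2C12, and 24 genes called in both in the same and 6 in opposite directions. Quantile normalization gave 203 in C2C12, 44 same and 10 opposite. Normexp on median signals gave 946, 116 and 117. Genes above background on all 8 arrays gave 57 in C2C12, and the mean over probes 177 with 46 same. Without a variance trend there were 955 differences, 45 in C2C12, 7 same and 1 opposite. The authors' log2 table gave 47, 6 and 1, and separate fits of each system 45, 11 and 3. With the replicate block there were 2205 differences, 4008 calls in muscle, 250 in C2C12, 73 same and 36 opposite. The labels do not say that same-numbered samples were paired, although those of the muscle groups correlated, and the cause was not tested. Leaving out single arrays gave 759 to 1358 differences, 1489 to 3291 in muscle, 38 to 244 in C2C12, 8 to 55 same and 2 to 36 opposite. The lowest difference and muscle counts came without vehicle muscle replicate 2. Without AP20187 muscle replicate 1 or 2 or AP20187 C2C12 replicate 1 there were 881, 966 and 871 differences.

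Averaging probes turned the sign of the difference for Usp20 (-0.53), Hspe1 (0.99), Hspa4 (0.28), Sparc (0.37) and Psat1 (1.55), and normexp for Extl1 (0.039). The cause was not tested. Of 101 named genes with a called difference, 66 kept it under all 19 alternatives and 35 lost it at least once. The list and level class counts were recomputed as alternatives chosen after seeing the data. Between 7 and 10 of the stress genes and 12 to 17 of the ribosome biogenesis genes (higher) were called when single arrays were left out, and 3 to 5 (higher) of both the NF-kappaB and the myogenic genes.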

Other observations

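Further lists are given by their counts. Of 22 amino acid synthesis genes 5 rose and 2 fell in muscle and 2 rose in C2C12, with a median change of 0.04 log2 in muscle and 0.28 in C2C12. The difference was called for 13.6% of them, near the 14.0% of all genes. Glul, glutamine synthetase, had a positive difference of 1.26, and Psph, which completes serine synthesis, had a negative one of -0.99. Of 52 cytosolic ribosomal protein genes 8 fell in muscle, near the 13.2% of all genes that fell there. A called difference was found for 1, Rps7, against 14.0% of all genes, and it was lost under 10 alternatives. Of 19 heat shock genes the difference was called for 2 (10.5%, below the 14.0% of all genes), with Bag3, a co-chaperone of muscle, at 1.03 and Hspa4, a chaperone, at -0.67. The Hspa4 call was lost under 10 alternatives, and the sign turned when probes were averaged. Of 20 cell cycle genes 3 rose and 6 fell in muscle, the median difference was -0.24, and 3 had a positive called difference, near the 10.4% of all genes. They included Cdkn1a, which encodes the inhibitor p21, at 1.57 (called in 7 of 19 alternatives) and Mcm7, a replication helicase subunit, at 1.09. Cxcl10, an interferon-induced chemokine, read 2.38 and 0.08 in AP20187 muscle, against -2.15 and -2.13 in vehicle muscle. It read 2.99 and 2.77 in AP20187 C2C12, against 2.66 and 2.28 in vehicle C2C12. Its difference of 2.96 (SE 0.74, limma adjusted p = 0.0282) was lost under 9 alternatives, and the AP20187 muscle arrays lay far apart.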
